A study of Mus musculus with 15 samples.

Results

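Enzymes that conjugate drugs, toxins and hormones were measured by RNA-Seq in single microdissected tubules of the mouse proximal tubule and in whole kidney. They were all genes of the table whose symbol marks them as a glutathione S-transferase (Gsta, Gstk, Gstm, Gsto, Gstp, Gstt and Gstz), a microsomal glutathione S-transferase (Mgst), a UDP-glycosyltransferase (Ugt) or a sulfotransferase (Sult), with pseudogenes named -ps left out. That rule found 68 of 47069 genes: 22 Ugt, 22 Gst, 3 Mgst and 21 Sult genes. The 15 libraries came from male C57BL/6 mice aged 2 months, with no treatment named. Of these, 12 were single tubules dissected as PTS2, the middle part of the proximal tubule, in 3 sets of 4 labelled m1, m2 and m3, and 3 were whole kidney. The labels say neither what m or the replicate number stands for nor which libraries came from separate animals, so p-values measure the spread between these libraries. Values were TPM (transcript abundance corrected for transcript length and scaled to one total per library), so levels can be set side by side between genes, but sequencing depth is unknown and no counting interval is given. In bulk libraries, fewer cells of a type and less RNA per cell cannot be told apart.

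Phase II metabolism makes reactive or fat-soluble compounds larger and more water-soluble so that they can leave the body. Glutathione S-transferases join them to the tripeptide glutathione, UDP-glycosyltransferases add a sugar, most often glucuronic acid taken from UDP-glucuronate, and sulfotransferases add sulfate from the donor PAPS. The proximal tubule carries out these reactions, and it also takes up glutathione conjugates made elsewhere and trims them to mercapturates, which are passed into the urine.

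The PTS2 libraries were checked against marker genes before the enzymes were compared. The summed level of 3 S1 markers (Slc5a2, Slc5a12 and Slc2a2, of the early segment) was 50.1 ± 14.0 TPM in PTS2 (SD, n = 12) against 858 ± 37.5 in whole kidney (SD, n = 3). The S2 transporters Slc22a6 and Slc22a8 summed to 653 ± 268 against 757 ± 33.9 TPM. Slc22a6 was at 585 ± 228 against 486 ± 44.1 TPM and did not pass the test (adjusted p = 0.670, limma). Slc22a8 was lower in PTS2 without overlap, at 68.0 ± 42.2 against 272 ± 11.3 TPM (adjusted p = 0.000882, limma). The 4 markers of the late segment S3 summed to 3904 ± 605 against 1611 ± 208 TPM, and all 4 were higher in PTS2. So early-segment markers and the S2 marker Slc22a8 were low, but S3 markers stood above whole kidney in tubules labelled S2. Distal convoluted tubule and intercalated cell markers summed to 0.347 and 0.214 TPM in PTS2, against 207 and 141 in whole kidney. One library, replicate 3 of set m3, stood apart: 5 thick ascending limb markers summed to 1441 TPM there and to at most 55.8 in the other 11.

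A few enzymes made up most of the conjugation transcripts. The 68 genes summed to 11824 ± 527 TPM in PTS2 (SD, n = 12), or 1.18% of all transcripts, and to 9294 ± 171 TPM in whole kidney (SD, n = 3), or 0.929%. In PTS2 the Ugt genes held 54.6% of this sum, the Gst genes 38.3%, the Sult genes 4.65% and the Mgst genes 2.5%. Ugt3a2, Gstm1, Ugt2b38 and Ugt3a1 were the 4 most abundant in both tissues, with 65.8% of the sum in PTS2 and 57.7% in whole kidney. In PTS2 they were followed by Ugt2b37, Sult1d1, Gstp1, Gstz1, Ugt1a7c and Gstt2, all between 396 and 515 TPM on average, and these 10 held 89.5% of the sum. At the other end, 26 of the 68 genes did not reach 1 TPM in any library, among them all 8 Sult2a genes, 6 of which were listed at 0 in all 15 libraries. Sult2a enzymes sulfate steroids and bile acids. A further 7 genes reached 1 TPM in some library but not as a mean over all 15, with a highest value of 2.96 TPM (Ugt1a1 in whole kidney), so 35 genes were tested and 33 were not. Of the 35, Ugt1a2 and Ugt2b34 passed the minimum only through whole kidney.

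**Figure D1:**
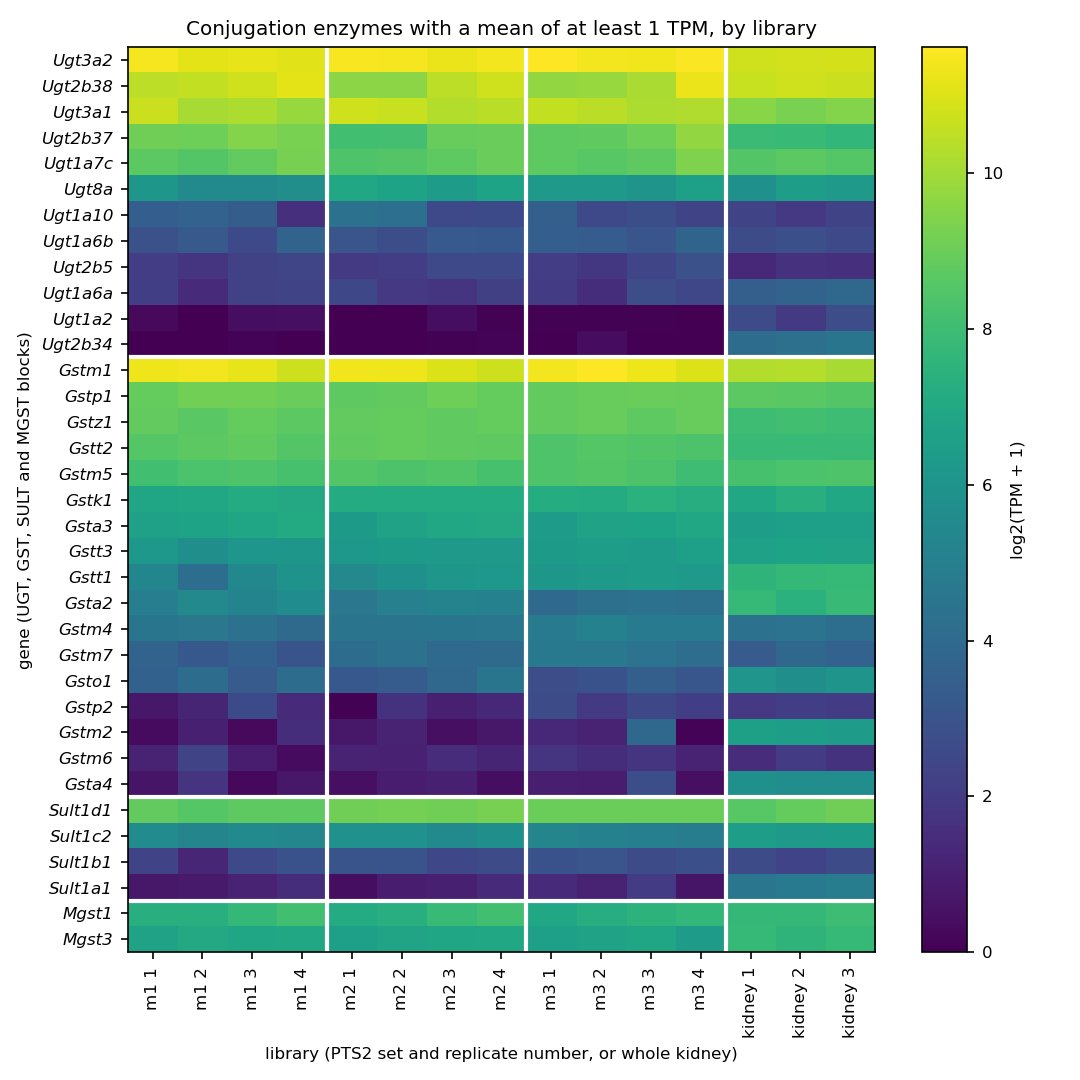
Heat map of the 35 tested enzymes (one per line, in blocks of Ugt, Gst, Sult and Mgst genes, ordered by PTS2 mean) against the 12 PTS2 and 3 whole kidney libraries. Colour is log2(TPM + 1). Ugt3a2, Ugt2b38, Ugt3a1 and Gstm1 are the brightest lines in both tissues, while Ugt2b34, Gstm2, Gsta4 and Sult1a1 are clearly brighter in whole kidney than in PTS2. Gstm2, Gsta4 and Sult1a1 are brighter in replicate 3 of set m3 than in the other PTS2 libraries. Ugt1a2 is faint in whole kidney and near 0 in PTS2.

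The comparison of PTS2 with whole kidney asked which conjugation enzymes the dissected segment holds at another level than the organ. Of the 10 most abundant enzymes of PTS2, 7 were higher there than in whole kidney, by 1.25-fold to 2.28-fold. Picking them by their PTS2 level favours such a count. All but Ugt2b37, 9 in number, were also among the 10 most abundant in whole kidney. Several enzymes of middle abundance in whole kidney were nearly missing from PTS2. Of the 35 tested, 20 passed an adjusted p of 0.05 (limma on log2(TPM + 1), Benjamini-Hochberg over 12039 genes), against 51.2% of all genes. Higher in PTS2 were 8 enzymes (22.9%, against 9.68% of all genes) and lower were 12 (34.3%, against 41.5%). In all 20 the PTS2 and whole kidney libraries did not overlap, where 5.69% of all genes were called higher and 31.5% called lower without overlap. The higher differences were small, with 1 of 8 beyond 1 on the log2 scale, and the lower ones large, with 9 of 12 beyond 1. Ugt1a2 and Ugt2b34 are among these 9, and since they entered the test only through whole kidney they had to differ. Among the other 33 enzymes, 10 were lower (30.3%), 7 of them beyond 1 on the log2 scale. These 7 include Gstm2 and Gsta4, whose PTS2 means reached 1 TPM only with replicate 3 of set m3. Without that library these 2 genes, too, entered the test only through whole kidney. The median log2 difference was 0.06 over the 35 enzymes and -0.27 over all genes tested. Rescaling by median of ratios moved the median of all genes to 0.00 and the split among 34 enzymes to 15 higher and 10 lower, with Sult1d1, Ugt1a7c, Gstm5, Gstk1, Gsta3, Gstm4 and Ugt1a6b added to the higher ones. Quantile normalization moved the median to 0.15 and the split to 12 and 12. Under median of ratios 2826 of 11919 genes were higher and 2751 lower. Under quantile normalization 4096 of 12039 genes were higher and 2266 lower. So after quantile normalization enzymes were called higher about as often as all genes. Under both rescalings enzymes were called lower more often than all genes, unlike in the main test. The 15 enzymes that did not pass had log2 differences from -0.43 to 0.86.

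**Figure D2:**
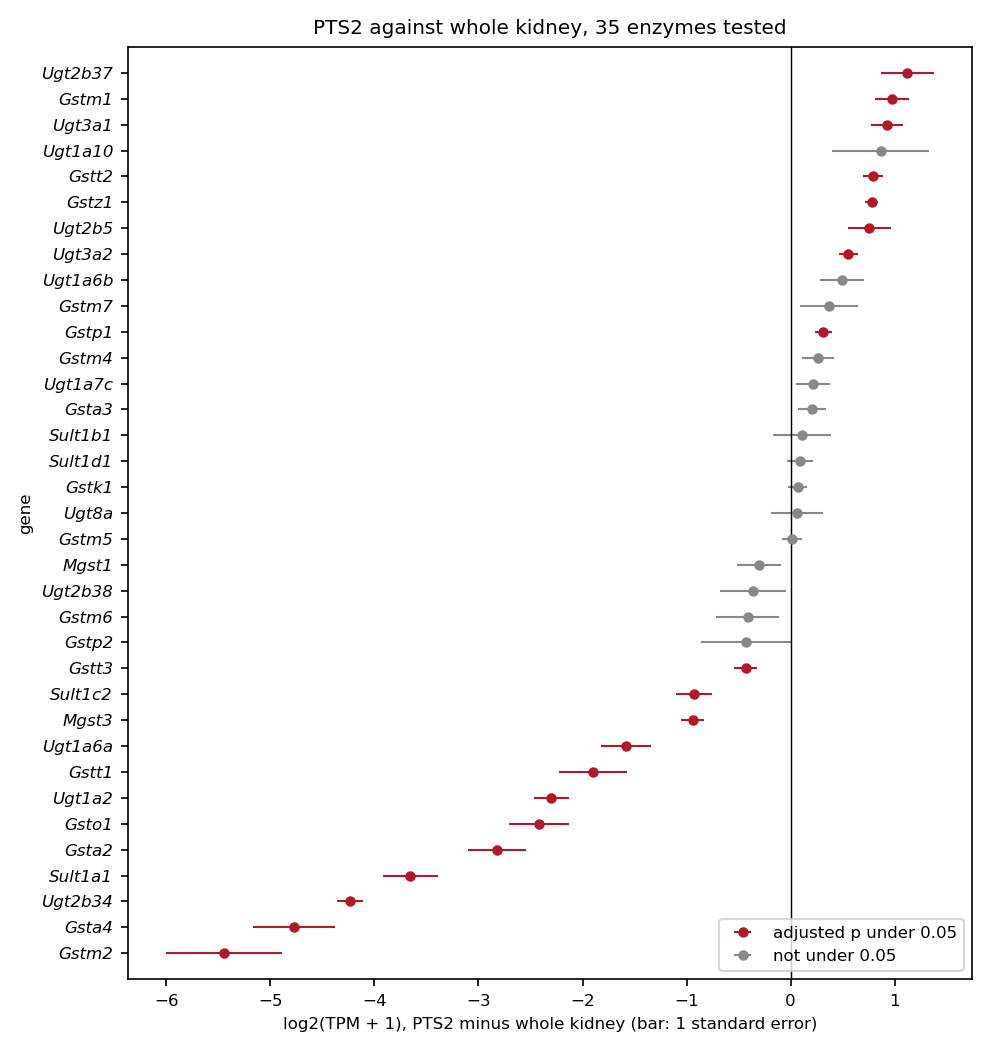
Difference in log2(TPM + 1), PTS2 minus whole kidney, for the 35 tested enzymes (points, with bars of 1 standard error). Points in red passed an adjusted p of 0.05 and points in grey did not. Ugt1a2 and Ugt2b34 entered the test only through whole kidney and had to be lower. The lower differences reach -5.45 (Gstm2) and the higher ones 1.12 (Ugt2b37) among the enzymes that passed.

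Among the UDP-glycosyltransferases, 4 of the 12 tested were higher in PTS2 (Ugt3a2, Ugt3a1, Ugt2b37 and Ugt2b5), Ugt1a6a was lower, Ugt2b34 and Ugt1a2 were tested only because of their whole kidney level, and 5 did not pass. Of all genes tested, 9.68% were higher and 41.5% lower. Ugt3a1 and Ugt3a2 belong to a small family whose human counterparts use sugars other than glucuronic acid, and they lie side by side on chromosome 15 (GRCm38; Ugt3a1 at chr15:9276888-9315032 and Ugt3a2 at chr15:9335550-9370955). Ugt3a2 ranged over 2211 to 3056 TPM (median 2751) in the 12 PTS2 libraries and was 1745, 1810.1 and 1845 TPM in the 3 whole kidney libraries. Ugt3a1 ranged over 912 to 1726 TPM (median 1295) against 747, 623 and 694 TPM. Every PTS2 library was thus above every kidney library for both genes. The log2 difference was 0.56 ± 0.09 for Ugt3a2 (adjusted p = 0.000128, limma) and 0.93 ± 0.15 for Ugt3a1 (adjusted p = 8.64e-05, limma), where ± gives the standard error. Together the pair held 33.7% of the enzyme sum in PTS2 and 26.8% in whole kidney.

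The Ugt2b genes, which glucuronidate steroids, bile acids and drugs, differed among themselves. All 7 lie within chr5:86889767-87424203 (GRCm38), from Ugt2b34 to Ugt2b38. Ugt2b34, the first of the cluster, was listed at 0 to 0.310 TPM in PTS2 (median 0.0200) and at 15.98, 18.7 and 22.0 TPM in whole kidney. Its PTS2 mean was 0.273% of the kidney mean, which is given as a description, since the filter fixed its direction. Ugt2b37 was higher, with 273 to 855 TPM (median 508) in PTS2 against 238, 230.1 and 209 TPM, a log2 difference of 1.12 ± 0.26 (adjusted p = 0.00166, limma). It was 2.28-fold higher on average, the highest ratio among the enzymes that passed. Ugt2b38 did not pass the test. It ranged over 767 to 2443 TPM (median 1405) in PTS2, on both sides of the 1596, 1778 and 1656 TPM of whole kidney (log2 difference -0.36 ± 0.32, adjusted p = 0.356, limma). Ugt2b5 was higher at a low level, 3.90 ± 1.15 TPM against 1.85 ± 0.373 (adjusted p = 0.00530, limma), and Ugt2b1, Ugt2b35 and Ugt2b36 stayed at or below 0.07 TPM in every library. Summed, the 7 genes stood at 1923 ± 708 TPM in PTS2 and 1923 ± 93.4 in whole kidney. The transcripts of these genes are alike: 52.9% of the 31-base words of Ugt2b38 and 34.4% of those of Ugt2b37 also occur in another gene's transcripts, most often Ugt2b5, so reads could be split between them in the authors' estimates. For Ugt2b34 this share was 2.95%.

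The stretches before the start sites of these Ugt2b genes are shown because the genes share a cluster and yet stood at very different levels in PTS2. Sequences are from RefSeq (build GRCm38.p6), which held a window for 59 of the 67 enzyme symbols. Each is 100 bases of the minus strand, from 120 to 21 bases before the annotated start, written 5′ to 3′. Capitals mark the longest stretch that the windows of Ugt2b37 and Ugt2b38 hold letter for letter, 71 bases, and the window of Ugt2b34 does not hold it. The comparison was chosen after these windows had been seen.
Ugt2b37 (chr5:87254809-87254908): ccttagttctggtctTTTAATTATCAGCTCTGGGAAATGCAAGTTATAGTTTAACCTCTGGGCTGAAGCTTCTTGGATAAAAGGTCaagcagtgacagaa
Ugt2b38 (chr5:87424224-87424323): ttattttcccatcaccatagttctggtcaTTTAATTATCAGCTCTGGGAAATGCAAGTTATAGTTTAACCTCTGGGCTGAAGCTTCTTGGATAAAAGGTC
Ugt2b34 (chr5:86906958-86907057): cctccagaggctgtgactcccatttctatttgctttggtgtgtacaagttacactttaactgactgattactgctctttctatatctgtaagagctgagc
Ugt2b38 and Ugt2b37 were among the most abundant enzymes of PTS2, and the PTS2 medians of Ugt2b34, Ugt2b1, Ugt2b35 and Ugt2b36 were at or near 0. Within 250 bases before the start, 232 bases of Ugt2b37 and Ugt2b38 could be aligned and 221 of them were the same (95.3%), while 34 bases of either could be aligned with Ugt2b34. Shared letters in a window do not show shared control.

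The Ugt1a genes, the main glucuronidating enzymes for bilirubin and phenols, lie within chr1:88055388-88220002. They share their last exons and therefore 53.0% to 84.2% of their 31-base words, so the split between them is uncertain. Ugt1a7c carried most of their signal, with 343 to 656 TPM (median 422) in PTS2 against 359, 408 and 369 TPM, and did not pass the test (adjusted p = 0.294, limma). Ugt1a6a was lower, at 3.52 ± 1.18 against 12.2 ± 1.69 TPM (log2 difference -1.58 ± 0.24, adjusted p = 3.67e-05, limma), and Ugt1a2 was at most 0.400 TPM in PTS2 against 5.25, 2.98 and 5.69 in whole kidney, again a description only. Ugt8a, which makes galactosylceramide rather than a drug conjugate, was at 78.0 ± 24.3 against 72.5 ± 15.4 TPM and did not pass (adjusted p = 0.851, limma).

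Of the 17 cytosolic and mitochondrial glutathione S-transferases tested, 4 were higher in PTS2 (Gstm1, Gstp1, Gstz1 and Gstt2), 6 were lower (Gstm2, Gsta4, Gsta2, Gsto1, Gstt1 and Gstt3) and 7 did not pass. The matching shares of all genes were 9.68% higher and 41.5% lower. The mu and theta clusters each held genes on opposite sides. The Gstm genes, a class with broad activity towards electrophiles, lie within chr3:107895821-108044894 (GRCm38). Gstm1 (chr3:108012255-108017973) ranged over 1674 to 3136 TPM (median 2561) in PTS2 against 1221, 1288 and 1097 TPM in whole kidney (log2 difference 0.97 ± 0.16, adjusted p = 0.000103, limma). Gstm2 (chr3:107981702-107986453) ranged over 0.0700 to 14.4 TPM (median 0.870) in PTS2 against 95.9, 88.8 and 85.8 TPM (log2 difference -5.45 ± 0.56, adjusted p = 4.11e-07, limma). On average Gstm1 was 1.99-fold above whole kidney and its neighbour Gstm2 at 2.17% of it. Gstm5, in the same cluster, was at 322 ± 33.3 and 319 ± 19.0 TPM and did not pass (adjusted p = 0.940, limma). Of the 31-base words of Gstm1, 28.8% occur elsewhere, mostly in the pseudogene Gstm2-ps1, and 12.2% of those of Gstm2.

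The 4 theta-class genes lie within chr10:75774115-75837424 and were split as well, in the order Gstt3, Gstt1, Gstt4 and Gstt2. Gstt2 ranged over 331 to 472 TPM (median 395) in PTS2 against 228, 224 and 230.2 TPM and was higher (log2 difference 0.79 ± 0.10, adjusted p = 3.64e-06, limma). Gstt1, which acts on small halogenated compounds, ranged over 17.6 to 85.0 TPM (median 64.6) against 188, 214 and 222 TPM and was lower (log2 difference -1.90 ± 0.33, adjusted p = 0.000145, limma). Gstt3 was lower by less, at 76.2 ± 10.2 against 102 ± 3.91 TPM (log2 difference -0.43 ± 0.11, adjusted p = 0.00423, limma). Under median-of-ratios rescaling Gstt3 no longer passed (log2 difference -0.14, adjusted p = 0.235, limma). The summed theta-class level was 532 ± 43.8 TPM in PTS2 and 538 ± 21.4 in whole kidney. Gstt4 stayed at or below 0.260 TPM.

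The alpha class, which detoxifies products of lipid peroxidation, was lower in sum, 139.5 ± 25.0 TPM in PTS2 against 351 ± 28.3 in whole kidney. Gsta2 ranged over 14.4 to 49.7 TPM (median 31.3) against 219, 172 and 224 TPM (log2 difference -2.83 ± 0.28, adjusted p = 2.72e-07, limma). Gsta4, known for acting on the aldehyde 4-hydroxynonenal, ranged over 0.190 to 6.02 TPM (median 0.810) against 55.3, 51.1 and 50.4 TPM (log2 difference -4.77 ± 0.39, adjusted p = 3.17e-08, limma). Gsta3 did not pass, at 109 ± 17.3 against 92.9 ± 1.70 TPM (adjusted p = 0.224, limma). Gsta2 shares 60.7% of its 31-base words with other genes, chiefly Gsta1, which was listed at no more than 0.360 TPM.

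The remaining classes were single genes of known special roles. Gstz1, which as maleylacetoacetate isomerase takes part in tyrosine breakdown, had the narrowest spread relative to its mean among the tested enzymes (coefficient of variation 5.70%), 401 to 481 TPM (median 458) in PTS2 against 256, 277 and 253 TPM (log2 difference 0.78 ± 0.06, adjusted p = 1.66e-08, limma). Gstp1, of the pi class, ranged over 422 to 558 TPM (median 481) against 408, 395 and 368 TPM (log2 difference 0.32 ± 0.08, adjusted p = 0.00351, limma). Its groups did not overlap, but the call was lost under quantile normalization (log2 difference 0.18, adjusted p = 0.0604, limma), and 38.5% of its 31-base words occur in Gstp2. Gsto1, an omega-class enzyme that reduces dehydroascorbate, was lower, with 5.64 to 21.9 TPM (median 9.92) against 65.7, 54.3 and 63.6 TPM (log2 difference -2.42 ± 0.29, adjusted p = 2.76e-06, limma). Gstk1, the mitochondrial and peroxisomal kappa-class enzyme, was at 139 ± 13.9 and 133 ± 17.3 TPM and did not pass (adjusted p = 0.578, limma).

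None of the 4 sulfotransferases and 2 microsomal transferases tested was higher in PTS2, and 3 of these 6 were lower. With 9.68% of all genes higher and 41.5% lower, counts this small do not set the 6 apart from other genes. Sult1d1, which sulfates catecholamines and prostaglandins, held most of the sulfotransferase signal, with 371 to 600.2 TPM (median 514) in PTS2 and 381, 472 and 553 TPM in whole kidney. Its libraries overlapped and it did not pass (adjusted p = 0.556, limma), although it passed as higher under median-of-ratios rescaling (adjusted p = 0.0128, limma). Sult1a1, the main phenol sulfotransferase, ranged over 0.360 to 3.22 TPM (median 1.07) against 22.2, 27.0 and 29.6 TPM (log2 difference -3.66 ± 0.26, adjusted p = 5.79e-09, limma). Sult1c2, which also sulfates phenols, was lower by less, 29.1 to 58.2 TPM (median 42.4) against 87.8, 77.9 and 79.3 TPM (log2 difference -0.93 ± 0.17, adjusted p = 0.000277, limma). Sult1b1 was at 5.57 ± 1.66 and 4.86 ± 0.765 TPM (adjusted p = 0.757, limma). The microsomal enzymes sit in membranes and also reduce lipid hydroperoxides. Mgst3 was lower, with 84.2 to 126 TPM (median 111) in PTS2 against 221, 186 and 217 TPM (log2 difference -0.94 ± 0.11, adjusted p = 1.68e-06, limma). Mgst1 overlapped, at 188 ± 50.9 and 225 ± 24.4 TPM (adjusted p = 0.245, limma), and Mgst2 stayed at or below 0.780 TPM.

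Of the 12 enzymes called lower in PTS2, 5 (Gstm2, Gsta4, Sult1a1, Gstt1 and Ugt1a6a) had their PTS2 maximum in the one PTS2 library with high thick ascending limb markers, and 7 had it in another library. In replicate 3 of set m3, Gstm2 was at 14.4 TPM, Gsta4 at 6.02 and Sult1a1 at 3.22. The other 11 PTS2 libraries reached at most 1.85, 2.39 and 1.86 TPM. Gstt1 was at 85.0 TPM there against at most 76.7 in the other 11, and Ugt1a6a at 5.64 against at most 4.74. Relative to the whole kidney mean, the levels of Gstm2, Gsta4 and Sult1a1 in this library were 15.9%, 11.5% and 12.3%, while its thick ascending limb marker sum was 56.1% of the kidney mean. All 5 markers were above 0 in it, with Umod at 1232 TPM and Slc12a1 at 151. Endothelial and macrophage markers summed to 31.04 and 47.4 TPM there, below the highest of the other libraries (32.7 and 77.1). Without this library the kidney mean was 109-fold above the PTS2 mean for Gstm2 instead of 46.2-fold, 64.8-fold instead of 42.1-fold for Gsta4 and 24.5-fold instead of 20.96-fold for Sult1a1. Sult1a1, at a PTS2 mean of 1.07 TPM without it, kept its call. The means of Gstm2 and Gsta4 fell to 0.825 and 0.807 TPM, below the minimum of 1 TPM. Without this library they entered the test only through whole kidney and had to be lower, so their kept calls show nothing further. In the main test, too, their PTS2 means reached 1 TPM only with this library. The part of these markers' cells in the enzyme values was not tested.

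**Figure D3:**
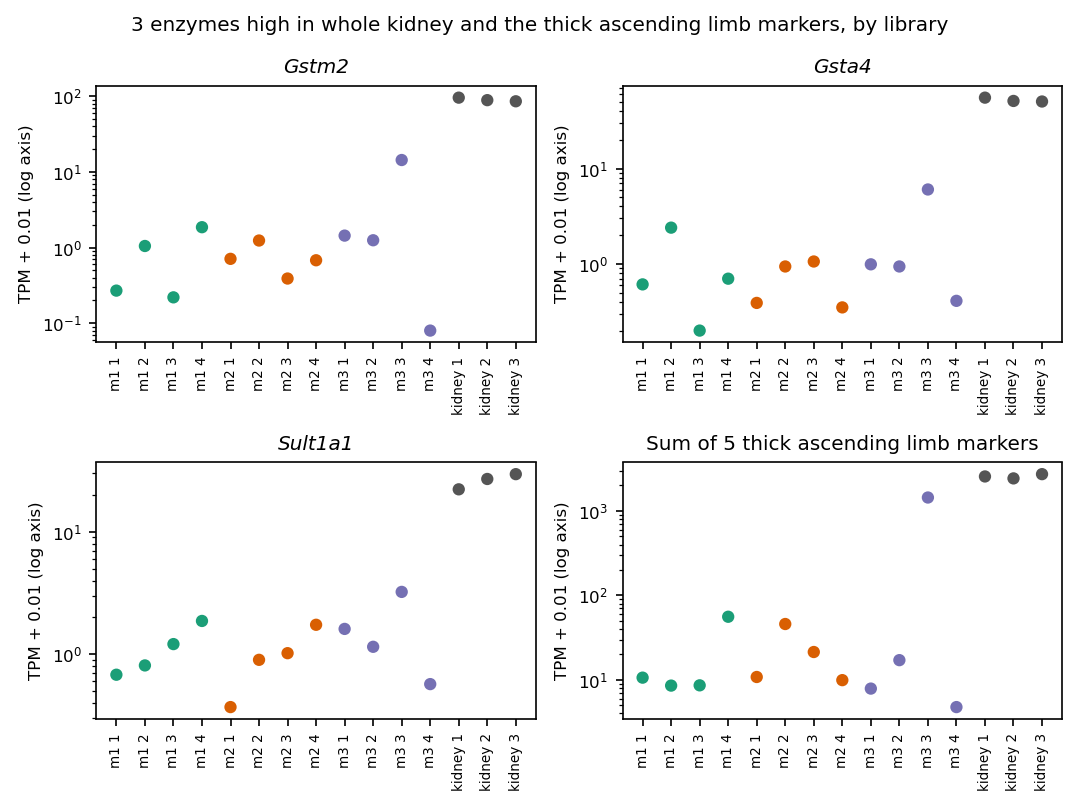
Gstm2, Gsta4, Sult1a1 and the summed level of 5 thick ascending limb markers in each library (TPM + 0.01, log axis; colours mark the sets m1, m2, m3 and whole kidney). Replicate 3 of set m3 is the highest PTS2 point in all 4 panels, with a marker sum of 1441 TPM.

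Genes that supply or follow the conjugation reactions were taken from 7 lists, of which 59 of 61 genes were in the table and 50 were tested. The lists were chosen with earlier results of these data known, so their shares, here and below, are descriptions only. In PTS2, 19 of the 50 were higher (38.0%, against 9.68% of all genes) and 14 lower (28.0%, against 41.5%), with a median log2 difference of 0.13, against -0.27 over all genes. The 14 include Abcc1 and Abcc4, which entered the test only through whole kidney and had to be lower. These shares of all genes are those without rescaling, and they moved with it. Glutathione synthesis and recycling went one way, with 7 of 7 tested genes higher. Gclm, the modifier subunit of the rate-limiting ligase, ranged over 720.1 to 1077 TPM (median 942) against 492, 531 and 448 TPM (log2 difference 0.91 ± 0.11, adjusted p = 2.34e-06, limma). Gss, the glutathione synthase, ranged over 835 to 1284 TPM (median 1056) against 565, 549 and 484 TPM (log2 difference 1.02 ± 0.11, adjusted p = 7.51e-07, limma). Both were above whole kidney in every library. The catalytic subunit Gclc overlapped, with 193 to 587 TPM (median 430.2) against 202, 227 and 226 TPM (adjusted p = 0.0194, limma), and lost its call without any single whole kidney library (adjusted p from 0.0531 to 0.0764, limma). Chac2 lost its call without whole kidney replicate 1 (adjusted p = 0.0558, limma). The cystine carrier Slc7a11 was listed at no more than 0.0900 TPM and was not tested.

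Genes of the mercapturate pathway lay on both sides. Ggt1, which removes the glutamyl group from glutathione conjugates, was at 2756 ± 225 TPM in PTS2 against 1555 ± 97.9 in whole kidney (log2 difference 0.82 ± 0.08, adjusted p = 2.02e-07, limma). Dpep1, the membrane dipeptidase that takes the next step, was at 2.19 to 7.73 TPM (median 4.18) in PTS2 against 142, 113 and 125 TPM (log2 difference -4.61 ± 0.26, adjusted p = 2.21e-10, limma). Nat8, which acetylates the resulting cysteine conjugate, was at 800.5 ± 98.5 against 449 ± 78.5 TPM (adjusted p = 2.19e-05, limma). So Ggt1 and Nat8 were higher and Dpep1, which acts between them, was almost missing, and the libraries did not overlap for any of them. The deacylases Acy1 and Acy3 were also higher, Acy3 at 5539 ± 430.2 against 2912 ± 379.7 TPM (adjusted p = 8.81e-08, limma). Anpep, a further peptidase of this list, was at 19.8 ± 3.73 against 17.5 ± 1.67 TPM and did not pass (adjusted p = 0.415, limma). Kyat1 did not pass either.

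The donor pathways differed less. Of 5 genes for UDP-glucuronate and its release, 3 were higher (Ugdh, Slc35d2 and Gusb), against 9.68% of all genes. Ugdh, which makes UDP-glucuronate, was at 204 ± 37.4 against 119 ± 12.3 TPM (adjusted p = 0.000491, limma), and Slc35d2 lost its call without whole kidney replicate 3 (adjusted p = 0.0516, limma). Of 8 genes of sulfate supply, 3 were higher (Papss2, Slc35b2 and Slc35b3) and 3 lower (Slc26a1, Bpnt1 and Impad1). The shares of all genes were 9.68% higher and 41.5% lower. Papss2, which makes PAPS, was at 239.9 ± 30.0 against 152 ± 16.1 TPM (adjusted p = 0.000145, limma). Under median-of-ratios rescaling the 3 lower calls were lost, and Slc35b2 and Slc35b3 lost theirs without whole kidney replicate 3 (adjusted p = 0.0879 and 0.0577, limma). Slc26a1 lost its call without any single whole kidney library (adjusted p from 0.0527 to 0.0996, limma). Among other conjugating or hydrolysing enzymes, Tpmt was higher and Hnmt and Ephx1 lower. Ephx1, the microsomal epoxide hydrolase, was at 0.700 to 5.79 TPM (median 1.62) against 25.9, 31.8 and 28.4 TPM (log2 difference -3.30 ± 0.34, adjusted p = 4.74e-07, limma), with no overlap. Hnmt no longer passed under median-of-ratios rescaling or quantile normalization.

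Of 6 tested exporters of conjugates, Abcc1 and Abcc4 entered the test only through whole kidney and had to be lower, so they are given no test here. Abcc4 was at most 0.750 TPM in PTS2 against 8.90, 8.43 and 7.18 TPM. Of the other 4, Abcc5 was lower (25.0%, against 41.5% of all genes) and 3 did not pass. Under median-of-ratios rescaling 3 exporters were called higher, and under quantile normalization 2. Among 10 regulators and targets of the oxidative stress factor NRF2, Nqo1 was higher and Nfe2l2, Ahr, Ppara and Srxn1 were lower. These counts are near the shares of all genes, 9.68% higher and 41.5% lower. Nqo1, a quinone reductase and NRF2 target, was at 142 ± 19.9 against 71.2 ± 9.29 TPM (adjusted p = 3.43e-06, limma). Nfe2l2, the gene of NRF2, was at 40.5 ± 5.30 against 64.6 ± 0.633 TPM (adjusted p = 6.25e-05, limma), and Srxn1, another target, at 37.6 ± 5.42 against 58.7 ± 3.84 (adjusted p = 0.000306, limma). So 2 targets of the same factor lay on opposite sides. Ppara lost its call under median-of-ratios rescaling and Ahr under quantile normalization.

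The 3 PTS2 sets were compared next. Of 33 enzymes tested over the 12 PTS2 libraries, 6 differed among the sets (18.2%; limma F test, adjusted p under 0.05), against 3.02% of the 11300 genes tested. They were Gsta2, Sult1d1, Gstm7, Sult1c2, Ugt8a and Gstt2. No set was highest for all of them: m1 was highest for Gsta2, m3 for Gstm7 and m2 for the other four. At an unadjusted p under 0.05 there were 14 (42.4%, against 16.4% of all genes). In pairs, 2 enzymes differed between m2 and m1 (against 0.54% of all genes), 5 between m3 and m1 (3.17%) and 3 between m3 and m2 (1.97%). These pair counts depended on single libraries. The first was 1 without m1 replicate 3 or m2 replicate 1 or 2, the second was 2 or 3 without any 1 library other than m1 replicate 1 and m2 replicate 1, and the last was 1 without m2 replicate 2 or 3 or m3 replicate 1 or 3.

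Gsta2 was at 30.5, 43.9, 36.3 and 49.7 TPM in set m1, 23.5, 32.1, 35.9 and 33.6 in m2 and 14.4, 18.6, 19.6 and 18.6 in m3 (replicates 1 to 4). Every m3 library was below every library of m1 and m2. The F test gave an adjusted p of 0.00467 (limma), and m3 minus m1 was -1.11 ± 0.16 on the log2 scale (adjusted p = 0.00272, limma). Gstm7, a low-level mu-class gene, showed the opposite order, at 11.9, 8.08, 11.2 and 7.11 TPM in m1, 16.0, 19.8, 14.5 and 15.3 in m2 and 24.5, 24.4, 20.4 and 16.8 in m3. All m1 libraries were below all others (F test adjusted p = 0.00663, limma), and m3 minus m1 was 1.10 ± 0.17 on the log2 scale (adjusted p = 0.00365, limma).

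Sult1d1 was at 451, 371, 422 and 427 TPM in m1, 539, 583, 538 and 600.2 in m2 and 518, 508, 512 and 517 in m3 (F test adjusted p = 0.00663, limma). The 3 ranges did not overlap, and m2 minus m1 was 0.44 ± 0.07 on the log2 scale (adjusted p = 0.00814, limma). Sult1c2 was at 48.2, 38.5, 44.5 and 40.3 TPM in m1, 57.7, 58.2, 45.3 and 54.9 in m2 and 38.4, 33.9, 31.6 and 29.1 in m3 (F test adjusted p = 0.00986, limma). Its m2 libraries were all above those of m3, with m3 minus m2 at -0.69 ± 0.11 on the log2 scale (adjusted p = 0.00530, limma). Ugt8a was at 70.1, 46.0, 46.6 and 52.0 TPM in m1, 119, 107, 82.8 and 104 in m2 and 77.6, 73.3, 63.6 and 93.0 in m3 (F test adjusted p = 0.0103, limma), with all m2 libraries above all of m1. Gstt2 was at 374, 416, 433 and 359 TPM in m1, 445, 472, 442 and 428 in m2 and 337, 371, 349 and 331 in m3 (F test adjusted p = 0.0332, limma). The Gstt2 call was lost without any 1 of the 4 m2 libraries or without m3 replicate 1, 3 or 4 (adjusted p from 0.0590 to 0.112, limma). It was also lost under median-of-ratios rescaling, and both Gstt2 and Ugt8a lost theirs with no filter on low values.

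Segment marker levels are given by set for comparison. The S2 sum was 809.6 ± 233 TPM in m1, 588 ± 250.2 in m2 and 560.3 ± 311 in m3 (SD, n = 4 each), and the S3 sum was 3614 ± 725, 3994 ± 691 and 4105 ± 401. The sets overlapped in both sums, and their part in the set differences was not tested. Of the 48 list genes tested, 4 differed among the sets (8.33%, against 3.02% of all genes): Kyat1, Papss1, Gusb and Hmox1. Kyat1, which cleaves cysteine conjugates, was at 70.1 ± 4.64 TPM in m1, 97.8 ± 4.83 in m2 and 119 ± 18.5 in m3 (SD, n = 4 each; limma F test adjusted p = 0.00208). Gusb lost its call without m2 replicate 2, 3 or 4 (adjusted p from 0.0504 to 0.0724, limma), and Hmox1 without m1 replicate 3, m2 replicate 2 or any 1 of the m3 libraries (adjusted p from 0.0521 to 0.107, limma).

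**Figure D4:**
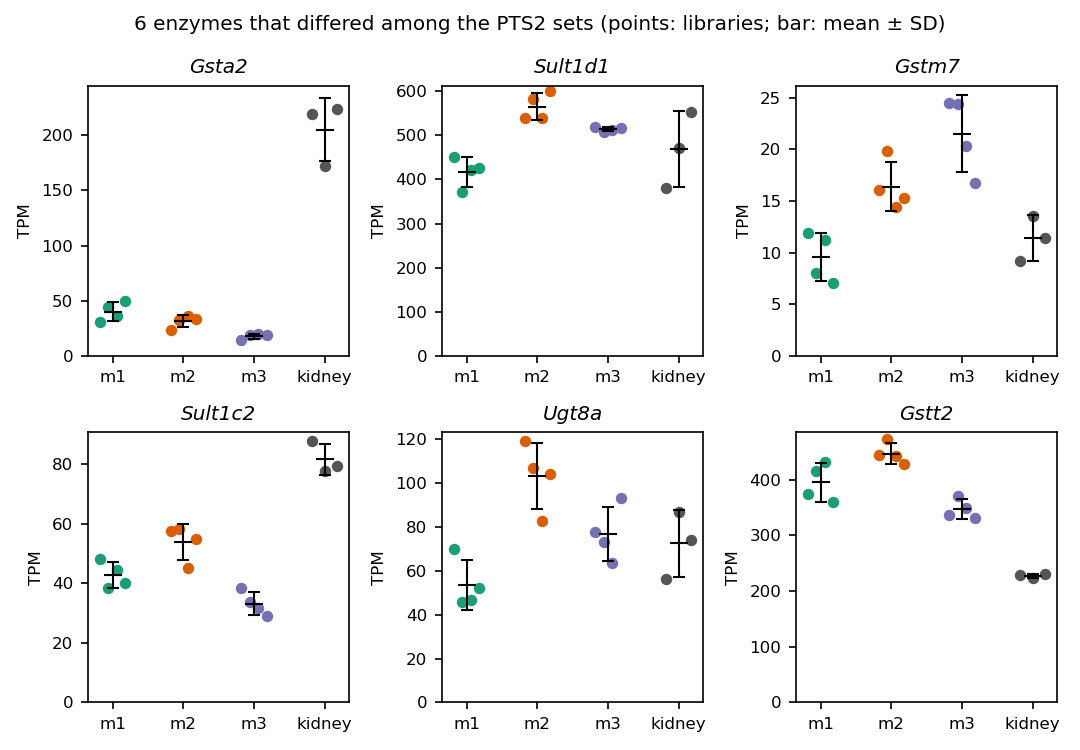
TPM of the 6 enzymes that differed among the PTS2 sets, by set and in whole kidney (points are libraries, horizontal bars the mean, error bars the SD; n = 4 per set and 3 for whole kidney). Gsta2 is lowest in m3 and far below whole kidney in all 3 sets, while Sult1d1, Ugt8a and Gstt2 are highest in m2.

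Libraries of one set were also compared by their replicate number, since earlier results of these data showed that same-numbered libraries deviate together. The comparison was thus picked from these same libraries, so its calls describe that pattern and are no separate evidence for it. The labels give the numbers no meaning. Of the 33 enzymes, 5 differed among numbers with the set as a term (15.2%; limma F test, adjusted p under 0.05), against 2.71% of all genes. Number 4 stood apart in all 5: Ugt2b38, Mgst1, Ugt1a7c and Gsta3 were highest and Gstm1 lowest in replicate 4 of each of the 3 sets. At an unadjusted p under 0.05 there were 14 (42.4%, against 21.1% of all genes).

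Ugt2b38, the gene with the widest range among the abundant enzymes, was at 2229, 1729 and 2443 TPM in replicate 4 of m1, m2 and m3 and at 1410.1, 769 and 856 in replicate 1 (F test adjusted p = 0.0142, limma). Gstm1 was at 1674, 1714 and 2019.7 TPM in replicate 4 and 2541, 2636 and 2763 in replicate 1 (adjusted p = 0.00824, limma). Within each set, then, Ugt2b38 was highest in the library where Gstm1 was lowest. The difference of number 4 from number 1 was 1.11 ± 0.17 on the log2 scale for Ugt2b38 and -0.56 ± 0.07 for Gstm1. Mgst1 was at 277, 269.8 and 203 TPM in replicate 4 and 155, 140.3 and 124 in replicate 1 (adjusted p = 0.00763, limma), without overlap. Ugt1a7c was at 601, 502 and 656 against 415, 343 and 423 TPM (adjusted p = 0.00943, limma) and Gsta3 at 134, 127 and 125 against 98.3, 79.4 and 82.0 (adjusted p = 0.0154, limma). With no filter on low values, or with no term for the set, none of the 5 and no gene at all passed, while 14 of 60 enzymes (23.3%, against 9.53% of all genes) and 9 of 33 (27.3%, against 12.6%) had an unadjusted p under 0.05. Ugt2b38 lost its call without m2 replicate 1 or m2 replicate 4 (adjusted p = 0.0510 and 0.0566, limma). Gsta3 lost its call without m1 replicate 4, m2 replicate 1, m2 replicate 4, m3 replicate 1 or m3 replicate 4 (adjusted p from 0.0520 to 0.0804, limma), so that 3 enzymes passed without m2 replicate 1 or m2 replicate 4.

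Of the 7 segment markers tested, 4 differed among the replicate numbers as well (57.1%; limma F test, adjusted p under 0.05). The S2 sum was 481 TPM on average in replicate 1 (range 368 to 704, 3 libraries) and 1022 in replicate 4 (892 to 1149). The S1 sum was 43.1 (37.6 to 50.7) and 70.4 TPM (60.5 to 79.9), with Slc5a2 and Slc5a12 near 0 throughout. The S3 sum was 4652 (4479 to 4829) in replicate 1 and 3259.9 TPM (2708 to 3683) in replicate 4. Replicate 4 thus had more S1 and S2 and less S3 marker signal than replicate 1, with no overlap between them. The part of segment position in the enzyme differences was not tested. Of the 48 list genes, 5 differed among numbers (10.4%, against 2.71% of all genes): Gclc and Oplah, both of glutathione metabolism, and Inmt, Glyat and Slc26a1. Inmt, a methyltransferase for amines, was at 3907, 2948 and 4031 TPM in replicate 4 of m1, m2 and m3 and 2300.0, 1593 and 2471 in replicate 1 (adjusted p = 0.00943, limma F test), highest in number 4 in all 3 sets. Gclc was at 193, 245 and 428 TPM in replicate 4 and 488, 523 and 587 in replicate 1 (adjusted p = 0.0223, limma F test), lowest in number 4 in all 3. Gclc lost this call without m1 replicate 1, m1 replicate 4, m2 replicate 1 or m2 replicate 4 (adjusted p from 0.0782 to 0.103, limma). Oplah lost its call without m1 replicate 1 or m2 replicate 1, and Glyat without m1 replicate 1 or 4, m2 replicate 1 or 4, or m3 replicate 4 (adjusted p from 0.0519 to 0.0945 over both, limma). Slc26a1 lost its call without m1 replicate 4, m2 replicate 1 or 4, or m3 replicate 1, 2 or 4 (adjusted p from 0.0533 to 0.112, limma).

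**Figure D5:**
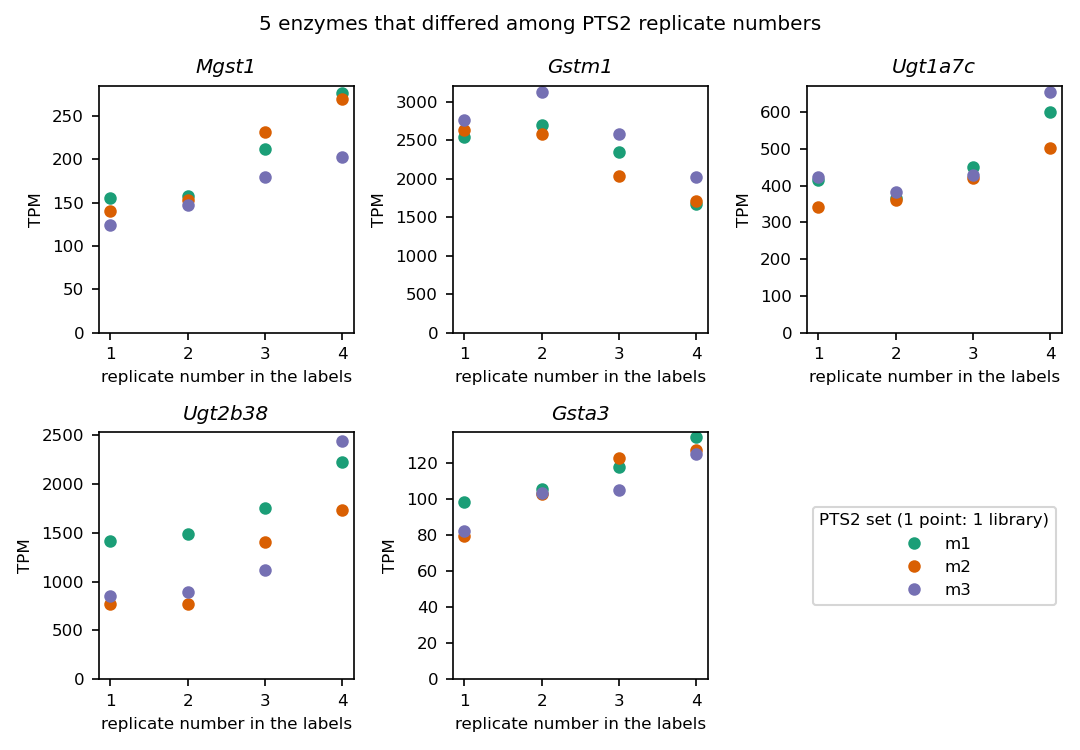
TPM of the 5 enzymes that differed among PTS2 replicate numbers, by number (points are libraries, colours the sets). Replicate 4 is the highest point of its set for Mgst1, Ugt1a7c, Ugt2b38 and Gsta3 and the lowest for Gstm1.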

How the data were processed

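Gene expression was measured in 12 PTS2 and 3 whole kidney libraries of polyA RNA, amplified with the SMART-Seq V4 kit per the labels' protocols. The authors deposited 1 table of TPM values. The submitters' processing notes name STAR 2.5.1b, RSEM 1.2.31 and GRCm38.p5. The annotation release is not given in the sources used here. TPM keep no depth. Its 4 columns of summary statistics were left unused. Gene coordinates and shared 31-base words came from GENCODE M21 (GRCm38), which matched all 68 gene IDs.

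Differences were tested with limma 3.58.1 (R 4.3.3) on log2(TPM + 1) for genes averaging at least 1 TPM over the libraries compared. For PTS2 against whole kidney the set was a correlated block (within-set correlation 0.0669); F tests compared the 3 sets and, with the set as a term, the 4 replicate numbers. P-values were adjusted by Benjamini-Hochberg over all genes tested. Tables and sequences were handled in Python 3.11.15.

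Full statistics are given for the 10 enzymes most abundant in each tissue, up to 8 per direction that passed without overlapping libraries, and those that differed among the sets; other genes came from the pathway and marker lists. Some genes of these lists are not reported here. Members and lists were chosen with earlier results of these data known. Alternatives were a pseudocount of 0.1, no filter or a mean of 10 TPM, 2 rescalings, mitochondrial genes left out, other block terms and single libraries left out.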

Additional observations from a re-analysis of the deposited data

Results flagged for a closer look

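Within sets of 4 libraries, single values were set against the gap test of Dixon, 102 tests in all, of which chance would mark about 5.1. It marked 7. Ugt2b38 was at 2443 TPM in m3 replicate 4, with 1119 in the next library of that set, and Ugt1a7c in the same library was at 656 TPM, with 429 in the next. Gstm4 was at 33.0 TPM in m3 replicate 2 (next 27.8). In m3 replicate 3, Gstm2 was at 14.4 TPM (next 1.43), Gsta4 at 6.02 TPM (next 0.980) and the thick ascending limb marker sum at 1441 TPM (next 17.1). That sum was 55.8 TPM in m1 replicate 4, with 10.6 in the next library of the set.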

How the results depend on the processing

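The 8 enzymes higher in PTS2 became 15 under median-of-ratios rescaling and stayed between 8 and 9 when single libraries were left out. The 12 lower ones became 21 with no filter, where 62 enzymes were tested, and 11 to 12 without single libraries. All genes called went from 6161 to 3113 at a mean of 10 TPM and 9399 with no filter. Among the sets, 6 enzymes became 10 with the replicate block and 5 to 8 without single libraries. All genes called went from 341 to 888 with the replicate block, 196 with no filter and 197 to 563 without single libraries. For m2 minus m1, 2 became 5 with the replicate block, 1 with no filter and 1 to 3 without single libraries. For m3 minus m1, 5 became 11 with the replicate block, 3 with median-of-ratios, 2 with no filter and 2 to 7 without single libraries. For m3 minus m2, 3 became 1 with no filter and 1 to 3 without single libraries. Among replicate numbers, 5 became 8 at a mean of 10 TPM, 0 with no filter, 0 with no set term and 3 to 6 without single libraries, and all genes called went from 306 to 0, 0 and 75 to 507. The cause was not tested. With the replicate block, Ugt2b38 (log2 difference -0.59, adjusted p = 0.0296, limma) and Mgst1 (-0.45, adjusted p = 0.00202, limma) became lower in PTS2. Whole kidney has no replicate 4, so this block sets no kidney library beside the replicate 4 tubules, where both genes were highest. Same-numbered kidney and PTS2 libraries also showed no relation (mean correlation of deviations -0.0065). The part of this in both calls was not tested.

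Signs turned for values that had not passed. Sult1d1 became -0.026 under quantile normalization and ranged from -0.047 to 0.22 without single libraries. Gstm5 became -0.079 under quantile normalization, -0.0048 without mitochondrial genes and ranged from -0.029 to 0.055 without single libraries. Ugt8a ranged from -0.11 to 0.20 without single libraries. Impad1, called lower, became 0.093 under quantile normalization and did not pass. A pseudocount of 0.1 changed the call of none of the 123 values recomputed.

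Replicate numbers do not count as a pairing of the samples: only 7 of 12 same-numbered pairs of PTS2 libraries had a correlation of deviations above 0.1 (mean 0.143, against -0.0481 for 36 other pairs), although 9 of 12 libraries correlated best with their own number. Depth cannot be judged from TPM.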
